A study of Mus musculus with 6 samples.

Results

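Transforming growth factor beta (TGF-β) genes were measured in dermal fibroblasts sorted from mouse ears, as 10 genes that cover the 3 ligands (Tgfb1, Tgfb2, Tgfb3), the receptors and co-receptor (Tgfbr1, Tgfbr2, Tgfbr3), the activin subunit gene Inhba, the latency protein gene Ltbp1 and the feedback inhibitors Smad7 and Skil. Every probe set whose platform annotation names 1 of these genes and no other was taken, which gave 24 of the 45037 probe sets that are not array controls, for 10 of 18193 named genes. The comparison asks how fibroblasts of early neoplastic skin differ from those of normal skin. Cancer-associated fibroblasts (CAF, 3 arrays) were sorted from ears with visible dysplasia of K14-HPV16 mice, in which a keratin 14 promoter drives human papillomavirus 16 genes in basal keratinocytes, so the fibroblasts themselves were not the targeted cells. Normal dermal fibroblasts (NDF, 3 arrays) came from ears of non-transgenic FVB/n mice of the same age. All mice were male and 4 months old, cells of both groups were sorted for the receptor PDGFRα, and 15 mice of each genotype were used. The labels call the arrays biological repetitions but leave unsaid whether these were separate pools of mice, so the p-values measure only the spread between these arrays.

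TGF-β is secreted in a latent complex, held by its own propeptide and tethered to the matrix by latent TGF-β binding proteins. Once released it binds TGFBR2, which recruits and phosphorylates TGFBR1, and the activated TGFBR1 phosphorylates Smad proteins that enter the nucleus. Activins are related dimers that signal through their own receptors to the same Smads. In dermal fibroblasts the pathway is known for driving collagen synthesis and contractile genes, and Smad7 and Skil are classical feedback inhibitors.

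Values are log2 intensities as deposited, with array medians from 4.73 to 4.87, and 15 of the 24 probe sets had a mean over the 6 arrays at or above the median probe set (4.84). The sort marker Pdgfra was at 12.66, 12.45 and 12.50 on the CAF arrays and at 12.30, 12.47 and 12.60 on the NDF arrays. The CAF arrays were less alike than the NDF arrays, with a lowest within-group correlation across probe sets of 0.916 in CAF and 0.975 in NDF. CAF replicate 3 was the array farthest from the other 2 of its group for 55.1% of probe sets, against 24.8% for CAF replicate 2 and 20.2% for CAF replicate 1. In NDF the shares were 39.0% for replicate 1, 33.1% for replicate 2 and 27.8% for replicate 3. The 5′ minus 3′ difference of the Actb control probe sets was -1.72 to -1.30 in CAF and -1.68 to -1.39 in NDF, with CAF replicate 3 the highest of the 6 arrays. For Gapdh it was -1.42 to -1.19 in CAF, with CAF replicate 3 the highest of its group, and -1.50 to -0.98 in NDF. The 3 arrays per group limit the precision.

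No member passed the test over all probe sets. By limma with Benjamini-Hochberg adjustment over 45037 probe sets, 0 of the 24 had an adjusted p under 0.05, where 0.162% of all probe sets did (73, of which 65, or 0.144%, were higher and 8, or 0.0178%, lower in CAF). At an unadjusted p under 0.05 there was 1 member probe set higher in CAF (Inhba) and 3 lower (Tgfb3 and 2 of Tgfb2), against a background of 3.82% higher and 3.18% lower. All CAF arrays lay above all NDF arrays for 2 of the 24 and below for 6, against 5.69% and 7.14% of all probe sets. The median difference of the 24 was -0.04 log2 units, beside -0.02 over all probe sets. Probe sets of 1 gene are not independent observations, and 3 of the Tgfb2 sets and all 3 of the Tgfbr1 sets were designed on a shared source sequence.

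**Figure D1:**
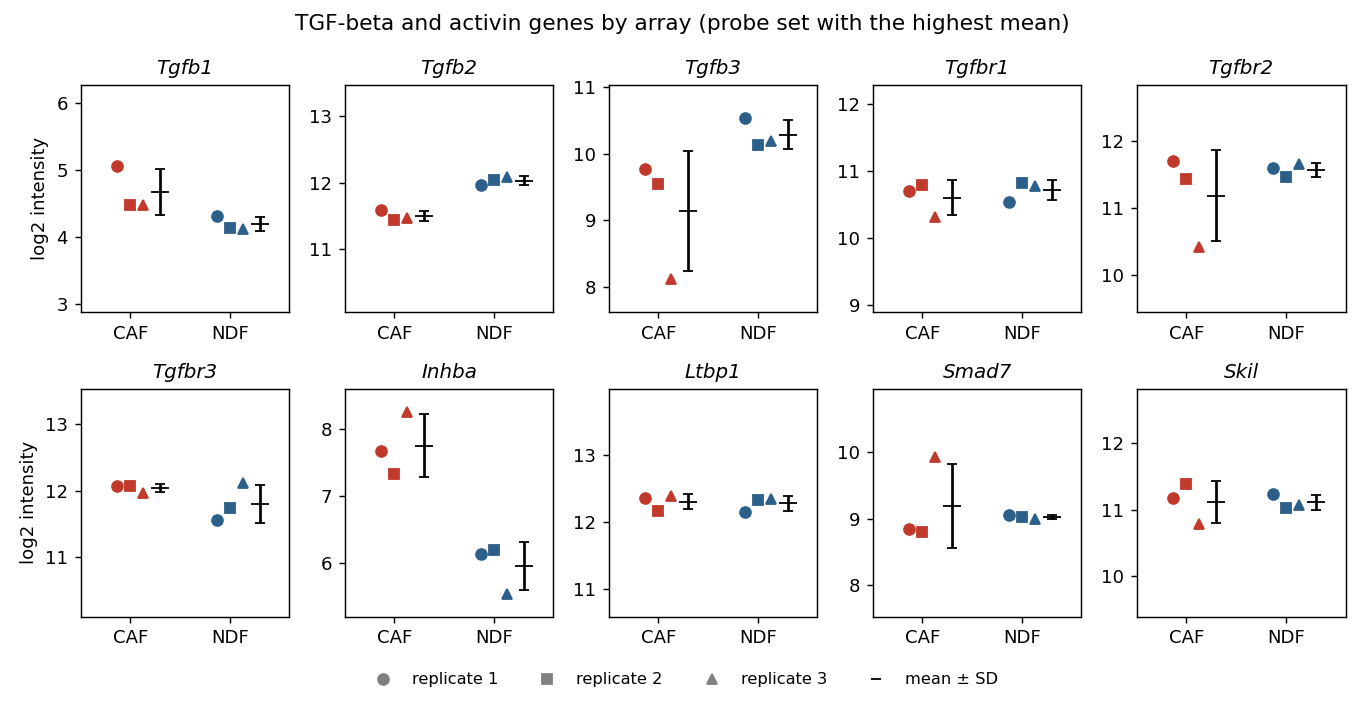
Log2 intensity of the 10 genes on each array, with the probe set of highest mean shown for each gene. Points are arrays (CAF left, NDF right), the bar is the mean ± SD of 3 arrays, and every panel spans the same number of log2 units. Inhba, Tgfb1, Tgfb2 and Tgfb3 are the panels where the groups do not overlap, and CAF replicate 3 lies apart from the other CAF arrays for Tgfb3, Tgfbr2 and Smad7.

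Tgfb2, whose product needs the co-receptor betaglycan to bind the kinase receptors well, had lower values in CAF on all 4 of its probe sets. Its brightest probe set (1450923_at) was at 11.59, 11.45 and 11.47 on the CAF arrays and at 11.96, 12.03 and 12.09 on the NDF arrays. The groups did not overlap, and the spread within each was small, at 0.07 log2 units (SD) in CAF and 0.06 in NDF. The difference was -0.53 ± 0.16 (SE) log2 units, with a 95% interval of -0.91 to -0.14, a 1.44-fold lower level in CAF (unadjusted p = 0.0143, adjusted p = 0.48 by limma). The other probe sets of Tgfb2 differed by -0.52, -0.45 and -0.24, and 2 of those 3 also had every CAF array below every NDF array. The -0.52 of 1423250_a_at became -0.23 without CAF replicate 2, its lowest array. Of the 2, 1438303_at, the set designed on a different sequence from the other 3, was at 8.81, 8.77 and 9.08 in CAF and at 9.40, 9.30 and 9.30 in NDF (unadjusted p = 0.0385, adjusted p = 0.658). In a bulk sample a lower level cannot tell less RNA per fibroblast from a smaller share of the cells that make it.

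Tgfb3, the isoform linked in mouse to palate fusion and wound healing, had the largest negative difference among the 24, and its size rested on 1 array. Its only probe set (1417455_at) was at 9.77, 9.54 and 8.12 on the CAF arrays and at 10.53, 10.13 and 10.18 on the NDF arrays. All CAF arrays were below all NDF arrays, with CAF replicate 3 far below the other 2. The difference was -1.14 ± 0.44 (SE), with a 95% interval of -2.19 to -0.09 (unadjusted p = 0.0375, adjusted p = 0.657). Without CAF replicate 3 it was -0.63 (adjusted p = 0.382), and without that array and NDF replicate 1 together -0.50.

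Tgfb1, the isoform made by many leukocytes and platelets as well as by stroma, was dim in both groups, and both of its probe sets lay below the median probe set. The brighter (1420653_at) was at 5.07, 4.48 and 4.48 in CAF and at 4.32, 4.14 and 4.13 in NDF. The CAF values were all above the NDF values, by a margin of 0.15 log2 units at the closest pair. The difference was 0.48 ± 0.22 (SE), with an interval of -0.05 to 1.01 (adjusted p = 0.776), and without CAF replicate 1, the highest array, it was 0.28. The second probe set differed by -0.07 with overlapping groups. No detection calls were used, so whether Tgfb1 was above background here was not tested.

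The 95% intervals of all 8 probe sets of the receptor genes included 0, which with 3 arrays per group does not show equal levels. Tgfbr1, the signalling kinase receptor, was at 10.70, 10.80 and 10.32 in CAF and at 10.55, 10.82 and 10.78 in NDF, a difference of -0.11 with an interval of -0.59 to 0.38. Its 2 dimmer probe sets differed by -0.39 and -0.30, so all 3 were lower in CAF, and the dimmest did not overlap between groups. The -0.39 of 1420894_at became -0.68 without CAF replicate 1, -0.61 without NDF replicate 1, -0.25 without NDF replicate 3 and -0.22 without CAF replicate 3. Tgfbr2, the ligand-binding kinase receptor, was at 11.69, 11.43 and 10.41 in CAF and at 11.59, 11.45 and 11.66 in NDF. Only CAF replicate 3 was below the NDF range by more than 0.1 log2 units, and the difference of -0.39 (interval -1.20 to 0.43) became -0.0031 without it and -0.64 without CAF replicate 1. The 2 other Tgfbr2 probe sets lay below the median probe set and differed by 0.0035 and -0.02. Tgfbr3, the betaglycan co-receptor that presents TGF-β2 to the kinase receptors, was at 12.06, 12.07 and 11.97 in CAF and at 11.56, 11.73 and 12.12 in NDF. These groups overlapped, with a difference of 0.23 (interval -0.25 to 0.71), and the second probe set differed by 0.22. The 0.23 became 0.11 without NDF replicate 1 and 0.39 without NDF replicate 3. The smallest adjusted p among the receptor probe sets was 0.879.

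**Figure D2:**
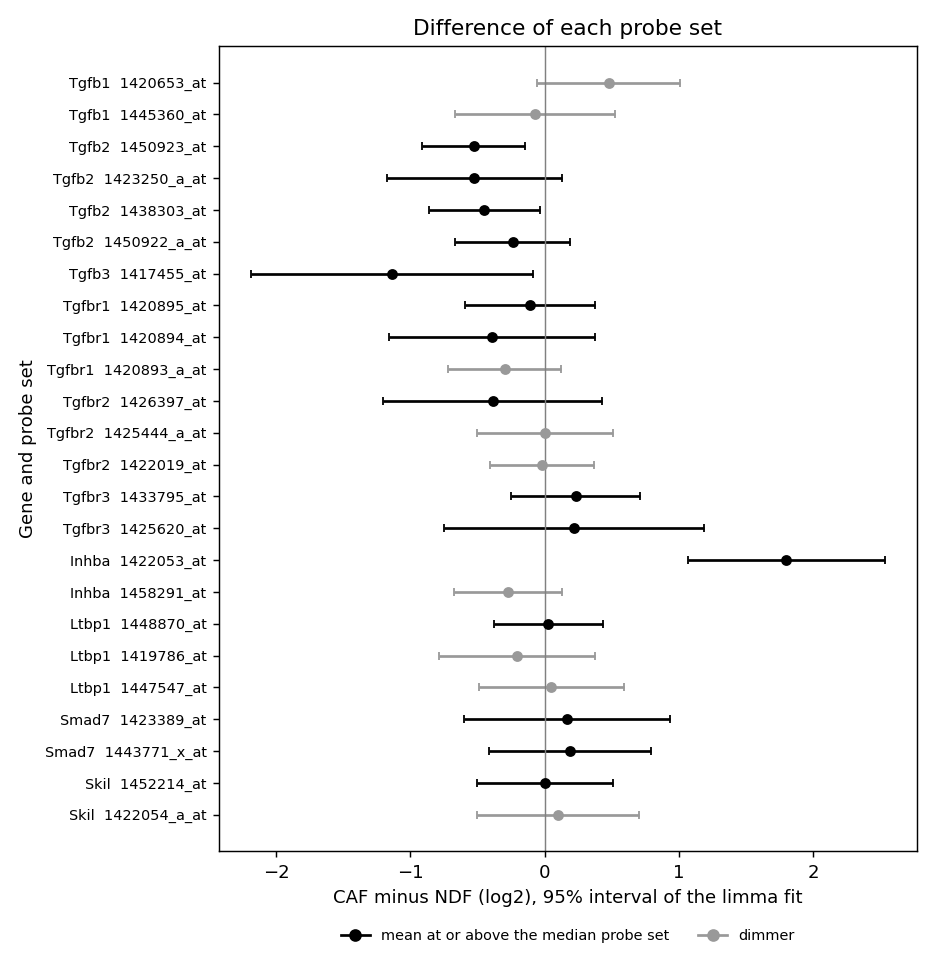
Difference of each of the 24 probe sets, CAF minus NDF in log2 units, with the 95% interval of the limma fit; grey marks probe sets whose mean lies below the median probe set. The intervals of Inhba 1422053_at, Tgfb3 and 2 probe sets of Tgfb2 leave out 0, before any adjustment for the number of probe sets tested.

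Inhba, which encodes the βA subunit of activin A, showed the largest difference of the 24 and the smallest p. Its brighter probe set (1422053_at) was at 7.66, 7.33 and 8.26 on the CAF arrays and at 6.13, 6.19 and 5.53 on the NDF arrays. Every CAF array was above every NDF array, by 1.14 log2 units at the closest pair. The difference was 1.80 ± 0.31 (SE), with a 95% interval of 1.07 to 2.54, a 3.48-fold higher level in CAF (unadjusted p = 0.000746). It missed the threshold over all probe sets, at an adjusted p of 0.132 by limma, and was at 0.0802 where 1 probe set per gene was tested. With each array left out in turn the difference stayed between 1.55 and 2.01. The second Inhba probe set (1458291_at) did not follow it. This set was dim, below the median probe set, at 4.42, 4.35 and 4.25 in CAF and at 4.65, 4.47 and 4.72 in NDF. Here every CAF array was below every NDF array, by 0.05 log2 units at the closest pair, with a difference of -0.27 (limma adjusted p = 0.889). The mean of the 2 probe sets differed by 0.76 (adjusted p = 0.173).

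Among 5922 other genes whose mean reached the median probe set and whose range was at least 1 log2 unit, those whose values followed Inhba most closely over the 6 arrays were Egr3 (Pearson r = 0.984), Psmb8 (0.982), Ctss (0.982), Sprr1b (0.979) and Klk13 (0.975). Egr3 encodes an early growth response transcription factor, Psmb8 an immunoproteasome subunit, Ctss a protease of antigen-presenting cells, Sprr1b a cornified envelope protein and Klk13 a kallikrein protease. All 5 had every CAF array above every NDF array, so the correlation mostly holds the difference between the groups, and CAF replicate 3 was the highest array for each of them, as it was for Inhba. Sprr1b was at 9.25, 8.32 and 10.80 in CAF and at 3.87, 3.06 and 3.05 in NDF, and Ctss at 9.75, 9.97 and 11.18 in CAF and at 7.47, 6.70 and 5.78 in NDF. These likenesses are descriptions of 6 arrays, and genes chosen for their correlation with Inhba would largely share its highest array.

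Some marker genes of other cells were higher on the same CAF arrays. Of 23 measured keratinocyte markers 4 passed the test as higher and 0 as lower, where 0.258% of all genes passed as higher. At an unadjusted p under 0.05 by limma 15 were higher and 0 lower, where 4.88% and 3.95% of all genes were. Of the 23, 21 had higher and 2 lower values in CAF, beside 8093 and 10100 of all genes. The summed level of the list was 13.85 to 14.87 in CAF and 13.22 to 13.38 in NDF (log2 of summed intensities). The wound keratin Krt6b was at 9.67 ± 0.44 in CAF and 3.07 ± 0.28 in NDF (SD, n = 3, limma adjusted p = 0.000975). Of 25 macrophage and dendritic cell markers 3 passed as higher. At an unadjusted p under 0.05 by limma 16 were higher and 0 lower, and in all 23 had higher and 2 lower values in CAF. Their sums were 12.18 to 13.79 in CAF and 9.89 to 10.62 in NDF. Ptprc, the pan-leukocyte CD45 gene, was at 8.44 in CAF and 4.11 in NDF. Of 12 neutrophil markers 1 was higher (Clec4d), with sums of 13.02 to 14.23 in CAF and 7.58 to 9.53 in NDF. Of 19 endothelial markers 1 was higher (Lyve1), with sums of 11.51 to 12.41 in CAF and 10.62 to 10.95 in NDF. Of 15 lymphocyte markers 1 was higher (Cd69), with sums of 9.79 to 10.66 in CAF and 8.86 to 9.12 in NDF. The lymphocyte list had a median difference of 0.20, with 9 genes at higher and 6 at lower values in CAF. Its lowest was Zap70 at -0.47 (adjusted p = 0.713), and it and Cd8b1 at -0.30 had every CAF array below every NDF array, both named after their values were seen. Of 11 mast cell markers and 12 pericyte and smooth muscle markers none passed, with 5 and 3 higher at an unadjusted p under 0.05. The mast cell sums were 9.40 to 10.91 in CAF and 8.06 to 8.60 in NDF, and the pericyte sums were 11.76 to 11.96 in CAF and 10.72 to 12.07 in NDF. Of 28 immediate-early genes, a class that tissue dissociation can also induce, 4 passed as higher (Btg2, Fosb, Ier3 and Nr4a1). At an unadjusted p under 0.05, 20 were higher and 0 lower, and in all 25 had higher and 3 lower values in CAF. The sums were 16.24 to 16.41 in CAF and 15.60 to 15.75 in NDF. The 12 fibroblast markers had a median difference of -0.16, with 0 past the threshold and, at an unadjusted p under 0.05, Pi16 higher and Col1a2 lower. Their summed level was 16.04 to 16.30 in CAF and 16.22 to 16.33 in NDF. No marker is at 0 on this scale, whose lowest value is 2.20, so none could be called absent. The part of these other cells in the values of Inhba, Tgfb1, Tgfb2 and Tgfb3 was not tested.

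The sequences before the starts of Inhba and Tgfb2 are shown because these 2 genes, of those with an entry, had the smallest p in each direction. They are the 250 bases upstream of the annotated start, from RefSeq on build GRCm38.p6, and 6 of the 10 genes had such an entry that was used here. Capitals mark letters that match the TATA box (TATAAA) or the Smad box (CAGACA), each searched on both strands with no overlap between them. Whether any match is a working site was not tested.
Inhba, chr13:16011601-16011850, plus strand: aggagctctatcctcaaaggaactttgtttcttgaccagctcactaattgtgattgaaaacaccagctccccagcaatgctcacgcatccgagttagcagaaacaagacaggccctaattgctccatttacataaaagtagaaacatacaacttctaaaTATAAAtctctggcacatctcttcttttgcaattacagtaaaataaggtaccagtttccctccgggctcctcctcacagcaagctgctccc
Tgfb2, chr1:186705990-186706239, minus strand: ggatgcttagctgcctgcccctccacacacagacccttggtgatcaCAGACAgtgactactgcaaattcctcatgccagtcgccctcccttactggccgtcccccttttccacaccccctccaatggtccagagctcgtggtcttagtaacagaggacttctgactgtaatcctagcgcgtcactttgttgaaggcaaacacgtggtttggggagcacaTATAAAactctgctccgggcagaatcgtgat
TATAAA lies 91 to 86 bases before the start of Inhba and 31 to 26 bases before that of Tgfb2, and 12.4% of all 32851 windows of this length hold it. CAGACA lies 204 to 199 bases before the start of Tgfb2, and 17.1% of windows hold it. The AP-1 letters TGANTCA (6.75% of windows) and the cAMP response element TGACGTCA (1.55%) are in neither window.

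Ltbp1, which ties latent TGF-β to the matrix, had nearly equal values in the groups. It was at 12.36, 12.17 and 12.38 in CAF and at 12.15, 12.33 and 12.35 in NDF, a difference of 0.03 with an interval of -0.38 to 0.44 (adjusted p = 0.997). Its 2 dim probe sets differed by -0.20 and 0.05, with overlapping groups. Leaving out 1 array at a time moved the -0.20 of 1419786_at between -0.37 (without CAF replicate 1) and -0.012 (without CAF replicate 2).

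The feedback genes differed by less than the spread between CAF arrays. Smad7, which blocks TGFBR1 and is itself induced by TGF-β, was at 8.84, 8.80 and 9.92 in CAF and at 9.05, 9.02 and 8.99 in NDF. The NDF arrays agreed within an SD of 0.03, and in CAF 2 arrays were below all NDF arrays and replicate 3 was above them. The mean difference was 0.17 (interval -0.60 to 0.94), and it was -0.20 without CAF replicate 3. CAF replicate 3 was also the highest array on the second Smad7 probe set, which was at 8.69, 8.66 and 9.44 in CAF and at 8.77, 8.67 and 8.78 in NDF. Skil, which encodes the Smad repressor SnoN, was at 11.18, 11.39 and 10.78 in CAF and at 11.23, 11.02 and 11.07 in NDF. Its groups overlapped, with a difference of 0.01 (interval -0.50 to 0.51) and 0.10 for its dim second probe set.

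**Figure D3:**
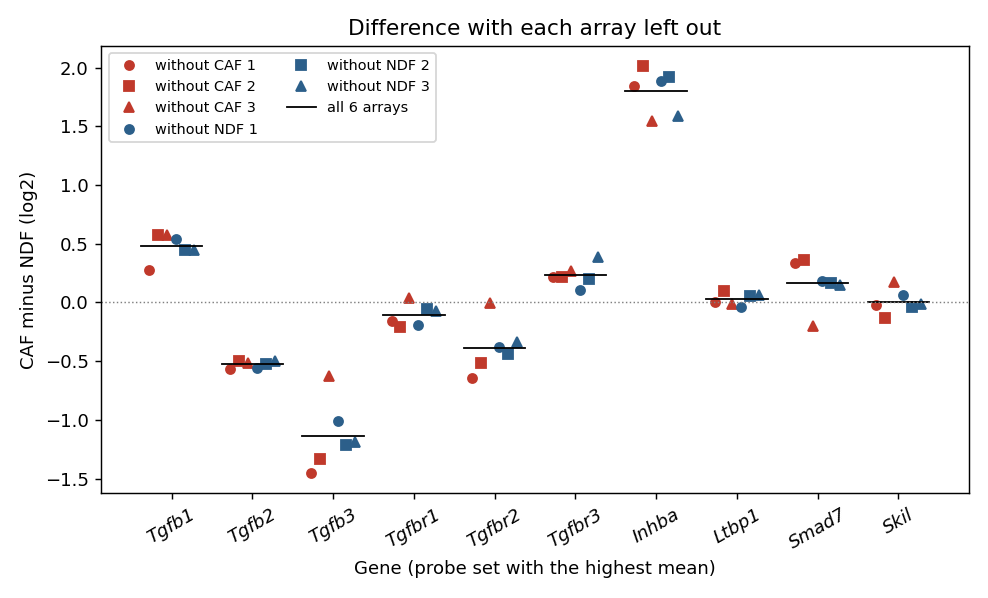
CAF minus NDF difference in log2 units for the 10 genes, with all 6 arrays (line) and with each array left out (points; CAF arrays red, NDF arrays blue). Inhba stays between 1.55 and 2.01 and Tgfb2 between -0.57 and -0.50, whereas Tgfb3, Tgfbr2 and Smad7 move when CAF replicate 3 is left out, to -0.63, -0.0031 and -0.20.

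The rest of the pathway was read from 6 lists of related genes, with the probe set of highest mean for each gene. Of the 100 measured genes none passed the threshold in either direction, where 0.275% of all 18193 genes did. Before adjustment (p under 0.05) 9 were higher and 9 lower in CAF, against 4.88% and 3.95% of all genes, and their median difference was -0.06, beside -0.04 over all genes. These shares and this median over all genes are also the background for the counts and medians of each list below.

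Of 18 genes of the latent complex and its activation, 2 had an unadjusted p under 0.05, each higher in CAF, with a median of -0.02. Mmp9, the gelatinase B gene, whose product can release TGF-β and which neutrophils and macrophages also carry, was at 7.87, 8.63 and 7.05 in CAF and at 5.25, 4.43 and 5.09 in NDF. That is a difference of 2.93 ± 0.43 (SE, limma adjusted p = 0.0866), and 2.39 for the other probe set. Mmp9 was past the threshold without CAF replicate 3 (3.33, adjusted p = 0.0489) and when its probe sets were averaged (2.66, adjusted p = 0.0155). Itgb8, the β8 integrin chain that activates latent TGF-β, was at 7.50, 7.58 and 7.00 in CAF and at 6.05, 6.56 and 5.97 in NDF, with no overlap (difference 1.17, adjusted p = 0.235). Mmp14, the membrane-bound metalloproteinase, differed by -0.41 (adjusted p = 0.799), beside -0.81 and -0.50 for the 2 dimmer probe sets.

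Of 12 other genes of the activin system, 2 had an unadjusted p under 0.05, each higher in CAF, with a median of 0.03. Fst, which encodes follistatin, the secreted antagonist that binds activin, was at 11.41, 11.15 and 11.79 in CAF and at 10.61, 10.82 and 10.94 in NDF. Every CAF array was above every NDF array, as for the brighter Inhba probe set, with a difference of 0.66 ± 0.22 (SE, limma adjusted p = 0.562), and 0.63 for the other probe set. Acvr1c, a type I receptor, was dim and differed by 0.65 (adjusted p = 0.661), while its 2 other probe sets differed by 0.03 and 0.05. Acvr1b, the main activin type I receptor, was at 8.57, 8.50 and 8.06 in CAF and at 7.88, 7.58 and 8.06 in NDF, where CAF replicate 3 was level with NDF replicate 3 (difference 0.53, adjusted p = 0.72), and its dim second probe set was 0.07 higher in CAF.

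Of 12 co-receptors and traps, 3 had an unadjusted p under 0.05, with 1 higher and 2 lower, with a median of -0.05. Cd109, a membrane-anchored co-receptor that inhibits TGF-β signalling, was at 10.70, 10.77 and 10.36 in CAF and at 11.18, 11.19 and 11.35 in NDF, without overlap (difference -0.63, adjusted p = 0.465, and -0.38 for the other probe set). The secreted protease gene Htra1 was at 10.99, 10.25 and 11.09 in CAF and at 11.67, 11.41 and 11.52 in NDF (difference -0.76, adjusted p = 0.582), and -1.10 for the other probe set. Eng, the endoglin co-receptor, abundant in endothelial cells, was at 6.85, 6.77 and 6.91 in CAF and at 6.22, 6.65 and 6.22 in NDF (difference 0.48, adjusted p = 0.678). The dimmer Eng probe set was 1.00 higher in CAF on the log2 scale, with an adjusted p of 0.322. The endothelial list was also higher on these arrays, and its part in the Eng values was not tested.

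Of 9 Smads and adaptors none passed at an unadjusted p under 0.05, and the median was -0.07. Smad2 and Smad3, the receptor-activated Smads of the pathway, differed by 0.21 and -0.32, with adjusted p = 0.981 for each, while the other Smad2 probe set differed by -0.73 and the 2 dimmer Smad3 sets by -0.23 and 0.20. The endosomal protein gene Zfyve16 differed by -0.69 (adjusted p = 0.77). Smad3 was at 11.36, 11.32 and 9.89 in CAF and at 10.91, 11.21 and 11.40 in NDF, with CAF replicate 3 alone below the NDF range. Of 14 other genes tied to Smad feedback and its control, which are not all inhibitors, 2 had an unadjusted p under 0.05. Each of the 2 was lower in CAF, and the median of the list was -0.11. Ski, the Smad repressor related to Skil, was at 11.70, 11.69 and 11.07 in CAF and at 12.16, 12.05 and 12.18 in NDF, without overlap (difference -0.64, adjusted p = 0.592), and -0.51 for the other probe set. Tgfb1i1, a focal adhesion adaptor also called Hic-5, differed by -0.61 (adjusted p = 0.613). The repressor gene Tgif1 was at 6.96, 6.88 and 9.29 in CAF and at 6.82, 6.65 and 6.97 in NDF, where CAF replicate 3 was far above the other 5 arrays (difference 0.90, adjusted p = 0.923).

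Of 36 target genes of TGF-β in fibroblasts 9 had an unadjusted p under 0.05, with 4 higher and 5 lower, and the median was -0.13. Il11, a cytokine that fibroblasts secrete in response to TGF-β, was at 9.20, 9.13 and 10.64 in CAF and at 7.64, 5.72 and 6.12 in NDF. The groups did not overlap, with a difference of 3.16 ± 0.61 (SE, adjusted p = 0.181), and Il11 was past the threshold only without CAF replicate 3 and NDF replicate 1 together (3.24, adjusted p = 0.0483). Junb, an AP-1 gene that is also an immediate-early gene, was at 6.67, 6.75 and 7.12 in CAF and at 4.81, 5.25 and 5.82 in NDF (difference 1.55, adjusted p = 0.171). Sphk1, the sphingosine kinase gene, differed by 1.10 (adjusted p = 0.224), with 0.46 for its other probe set. The fourth higher gene was the transcription repressor Bhlhe40 at 0.55, and the 5 lower were the matrix genes Col5a1 at -1.21, Col1a2 at -0.52 and Tgfbi at -0.91, the hyaluronan synthase Has2 at -1.02 and the collagen cross-linking enzyme Lox at -0.55, all named after their values were seen. Their adjusted p-values lay at or above 0.354.

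**Figure D4:**
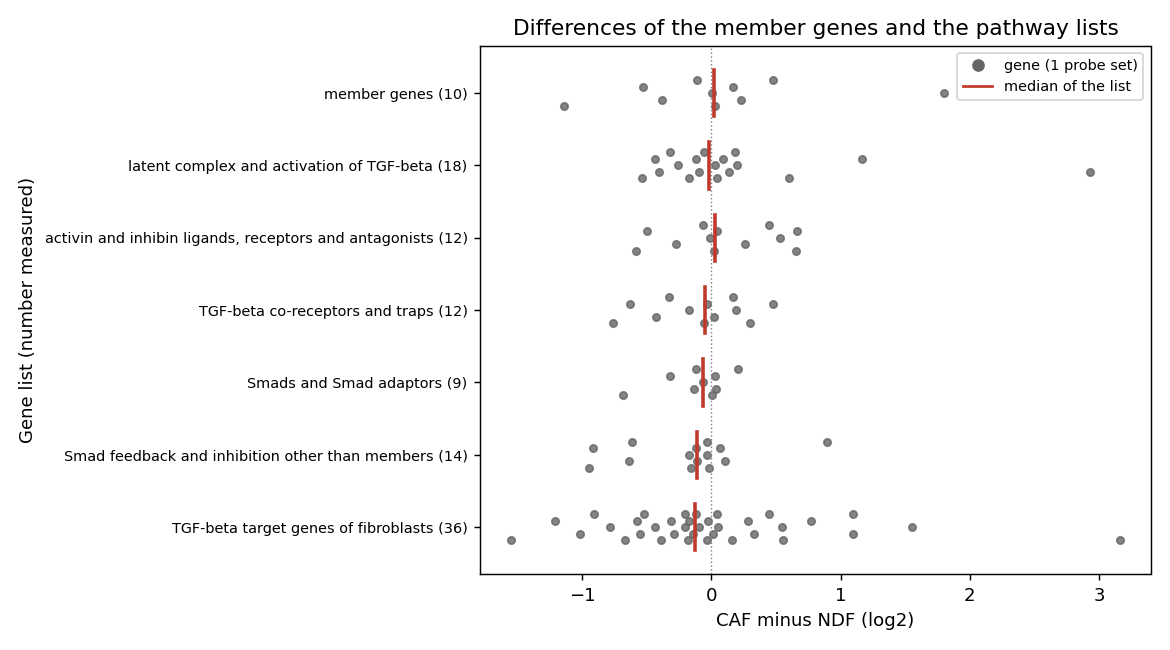
CAF minus NDF difference in log2 units of the 10 genes and of the 6 pathway lists; each point is 1 gene and the red line is the median of the list. Every median lies between -0.13 and 0.03, and the points farthest to the right are Il11 at 3.16, Mmp9 at 2.93 and Inhba at 1.80.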

How the data were processed

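The deposited table holds log2 intensities of 45101 probe sets on 6 Affymetrix mouse arrays, of which 64 are controls. Per the submitters' processing notes the authors used GCOS and RMA, and per the labels' protocols the RNA had 1 round of WT-Ovation amplification. Gene names came from the platform annotation.

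The other 45037 probe sets were fitted with limma 3.58.1 in R 4.3.3 (lmFit and eBayes, constant prior variance, two-sided, group as the only term), with Benjamini-Hochberg adjustment and a threshold of 0.05. Dim probe sets were kept. For lists, each gene's probe set with the highest mean was read from the same fit (18193 genes). The procedure was also run on simulated normal noise with equal spread in both groups. The CAF arrays here were less alike than the NDF arrays, so that run does not measure its errors on these data. Figures were drawn with matplotlib 3.10.9.

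The 10 genes, the lists and the tests were chosen with earlier results of these data known. Named genes were all members, up to 3 genes of each pathway list and up to 2 of each marker list with the smallest p, every pathway gene past the threshold, Pdgfra, and the 5 genes most correlated with the member of smallest p. Ier3, Nr4a1, Bhlhe40, Col5a1, Col1a2, Tgfbi, Has2, Lox, Zap70, Cd8b1, Acta2 and Tagln were named after their values were seen, where not covered by this rule. The alternatives were a replicate block, other normalisations, filters, priors and probe set rules, a threshold of 0.1, and leaving out arrays.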

Additional observations from a re-analysis of the deposited data

How the results depend on the processing

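No member probe set passed an adjusted p of 0.05 under any alternative run, and the difference of Inhba 1422053_at stayed between 1.55 and 2.01 with its adjusted p at or above 0.0802, while the mean of both Inhba probe sets differed by 0.76. The count of all probe sets past the threshold was 73 in the main analysis and 24 on quantile normalisation again. It was 125 with the mean of probe sets of a gene, and 35 without probe sets whose names end in _s_at, _x_at or _a_at. An intensity trend gave 148, and an adjusted p under 0.1 gave 192. Without CAF replicate 3 and NDF replicate 1 together it was 22, and with 1 array left out 7 to 78. The count of pathway genes was 0 in the main analysis and 0 to 1 with 1 array left out. It was 1 (Mmp9) with the mean of probe sets and at an adjusted p under 0.1, and 1 (Il11) without CAF replicate 3 and NDF replicate 1 together. With the replicate number as a replicate block, 8 probe sets passed and 0 of the members. The numbers are not known to pair the arrays: deviations of same-numbered arrays correlated at -0.14, 0.14 and -0.04, and CAF replicates 1 and 3 correlated best with another number.

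Some differences changed sign, including some that were not near 0 in the main fit. These were Tgfbr2 1425444_a_at (-0.039 on quantile normalisation, -0.013 with equal array medians), Skil 1452214_at (-0.0098 with equal array medians) and Ltbp1 1448870_at (-0.041 as the mean of its probe sets). Without CAF replicate 3 and NDF replicate 1 together they were Tgfbr2 1426397_at (-0.39 to 0.0071), Tgfbr3 1425620_at (0.22 to -0.29) and Ltbp1 1448870_at (0.029 to -0.075). Smad7 1423389_at (0.17 to -0.18) and Smad7 1443771_x_at (0.19 to -0.049) also changed sign there. With 1 array left out the ranges were -0.27 to 0.12 for Tgfb1 1445360_at, -0.20 to 0.037 for Tgfbr1 1420895_at, -0.14 to 0.11 for Tgfbr2 1425444_a_at and -0.074 to 0.021 for Tgfbr2 1422019_at. They were -0.10 to 0.56 for Tgfbr3 1425620_at, -0.035 to 0.097 for Ltbp1 1448870_at, -0.10 to 0.23 for Ltbp1 1447547_at and -0.20 to 0.36 for Smad7 1423389_at. They were -0.063 to 0.33 for Smad7 1443771_x_at, -0.13 to 0.17 for Skil 1452214_at and -0.13 to 0.32 for Skil 1422054_a_at. The causes were not tested. No probe set had a signal set against background, so what dimness limits could not be measured.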
